A study of Mus musculus with 12 samples.

Results

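Vasopressin and oxytocin are sister peptide hormones, and 7 genes of their system were followed in the hypothalamus of mouse pups: the hormone genes Avp and Oxt, the receptor genes Avpr1a, Avpr1b and Oxtr, and Cd38 and Lnpep, which act in oxytocin release and in breakdown of the hormones. They were taken by gene symbol from a table of 43280 genes, and all 7 were found. The table held 1 library from each of 12 male C57/Bl6 pups at postnatal day 6, of which 6 were controls and 6 had been through modified maternal separation (MMS). MMS is an early-life stress procedure that combines daily time away from the dam, on a warmed surface, with repeated handling. Each library was made from the total RNA of a whole hypothalamus with a kit that primes at the poly(A) tail, so that reads start near the 3′ end of a transcript. Littermates were divided between control and MMS, the litter of a library is not given in the labels, and tests between libraries therefore treat all pups as unrelated.

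Vasopressin and oxytocin are made mainly by the large neurosecretory neurons of the paraventricular and supraoptic nuclei, each as part of a longer precursor that also holds a neurophysin, the carrier of the hormone in the granule. The granules travel to the posterior pituitary, where the hormones enter the blood, vasopressin to hold back water and oxytocin to drive milk ejection and labour. Both peptides are also released within the brain, where they act through G protein-coupled receptors on social behaviour and on the stress axis, and vasopressin is made as well in the suprachiasmatic nucleus, the circadian pacemaker.

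Avp and Oxt are neighbours on mouse chromosome 2. In build GRCm38 with the GENCODE M21 annotation, Oxt lies at chr2:130576173-130577054 on the plus strand and Avp at chr2:130580620-130582554 on the minus strand. The genes point at each other, with 3565 bases and 0 other annotated genes between their 3′ ends. The stretch of exon 1 that encodes the hormone itself shows how alike they are, and it is printed here 5′ to 3′ with capitals at the bases that differ between the genes. It lies at chr2:130582446-130582472 (minus strand) in Avp and at chr2:130576267-130576293 (plus strand) in Oxt.

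Avp hormone codons: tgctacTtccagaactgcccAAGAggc
Oxt hormone codons: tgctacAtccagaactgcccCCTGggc

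Of these 27 bases 5 differ, which changes 3 of the 9 codons and the amino acid of 2 of them, at residues 3 and 8 of the hormone. Further on, in the neurophysin part, the transcripts share an identical run of 127 bases, which is printed because reads that lie wholly inside it cannot be assigned to either gene by their sequence.

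Avp and Oxt shared run: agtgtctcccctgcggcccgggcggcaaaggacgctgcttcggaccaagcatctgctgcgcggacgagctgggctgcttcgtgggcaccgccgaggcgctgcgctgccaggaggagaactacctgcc

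The run ends 307 bases before the 3′ end of the Avp transcript and 255 bases before that of Oxt. In the last 200 bases of the transcripts, the end at which the kit primes, the longest identical run was 8 bases. How the authors counted reads with several matches is not given in the sources used here, so a small exchange of reads between Avp and Oxt cannot be told from these counts.

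Over all genes, library totals ran from 3218777 to 6560620 counts, and 13104 genes passed the count filter of edgeR. No gene passed an adjusted p of 0.05 between MMS and control in the quasi-likelihood test of edgeR (0 genes, 0%) or in limma-voom (0 genes), DESeq2 gave 6 genes, and 1190 genes had an unadjusted p under 0.05 in edgeR (9.08%). The libraries MMS 2 and MMS 4 stood apart from the rest on the first principal component, at 57.8 and 46.3 against -14.4 to -3.04 in the other 10. The hypothalamic transcription factors Otp and Sim1, both needed to form the paraventricular nucleus, were present in all libraries, Otp at 46.1 to 98.7 and Sim1 at 8.18 to 16.6 CPM (counts scaled to a common library total by edgeR).

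Among the members, Avpr1a was lower in MMS on the unadjusted test only, while the 95% intervals of Avp, Oxt, Oxtr, Cd38 and Lnpep all included 0 and Avpr1b was at or near 0 throughout. The mean of Avpr1a was 14.9 ± 3.06 CPM for the controls against 10.9 ± 2.40 CPM after MMS (SD, n = 6 per group), a log2 fold change of -0.45 ± 0.19 (SE). The edgeR p was 0.0277 before adjustment and 0.543 after adjustment over all tested genes. Of the 6 members tested 0 passed the adjusted threshold in edgeR, DESeq2 or limma-voom, and 1 had an unadjusted p under 0.05 in each of them. Of all tested genes 577 were lower in MMS at an unadjusted p under 0.05 (4.4%). In none of the 6 did the MMS and control libraries separate fully (0 members), which 51 of all tested genes did (0.389%). Because whole hypothalami were used, fewer cells that express a gene and less of its RNA per cell cannot be told apart for any of these values.

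**Figure D1:**
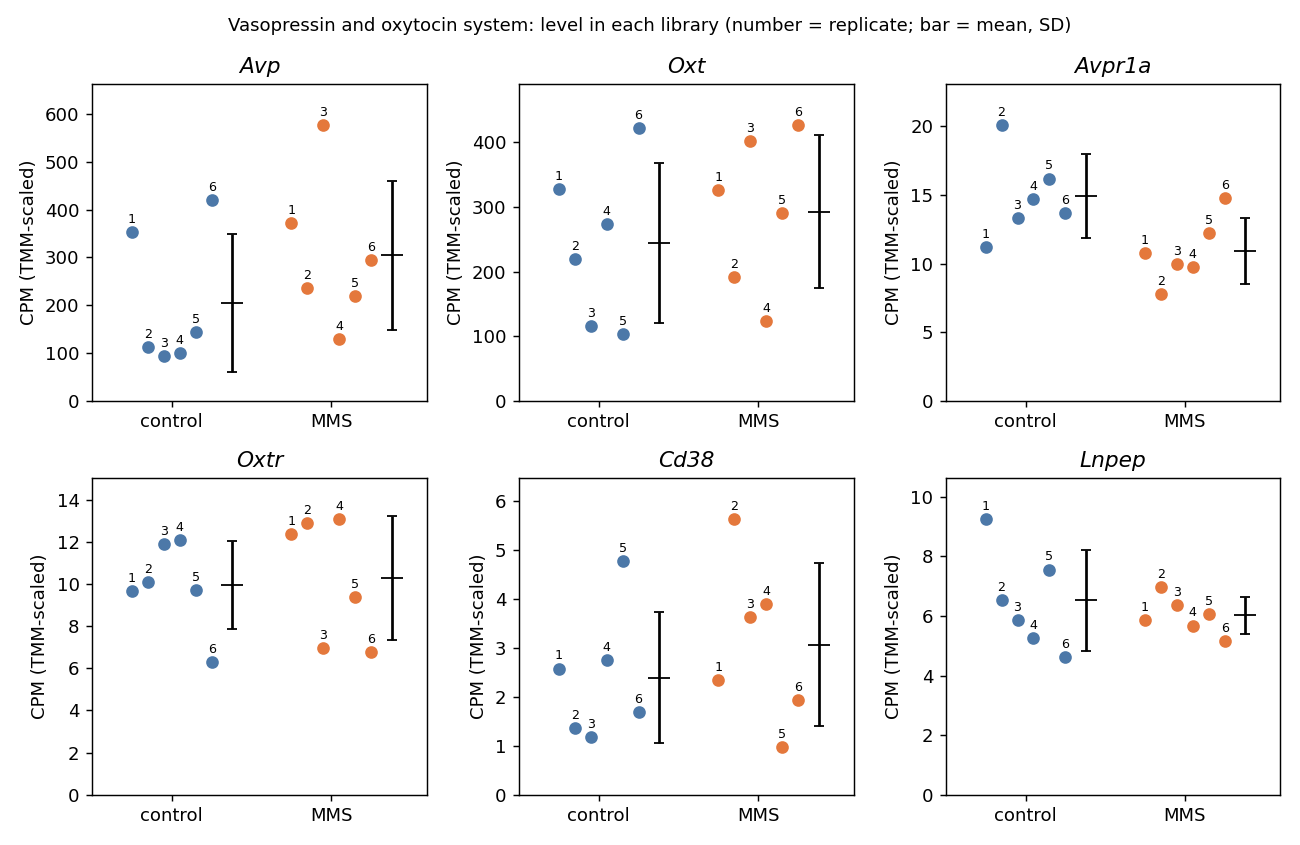
CPM (linear axis from 0) of 6 members in each control (blue) and MMS (orange) library, with the replicate number above each point and the mean ± SD of each group in black. Avp and Oxt cover a wide range in both groups, and 4 of the 6 MMS libraries lie below all controls for Avpr1a.

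The hormone genes were by far the most abundant members. Oxt averaged 269 CPM over the 12 libraries and Avp 254 CPM, ranks 641 and 692 among all genes, with at least 415 counts of Avp and 669 of Oxt in every library. The receptors and the remaining members were low, Avpr1a at 12.9, Oxtr at 10.1, Lnpep at 6.27 and Cd38 at 2.73 CPM. Since reads start at the 3′ end, these levels are not divided by gene length. Oxt exceeded Avp in 6 of 12 libraries, so the order of the hormone genes was not resolved. Avpr1a exceeded Oxtr in 9 of 12 libraries, with overlapping ranges. Oxtr was above Lnpep, and Lnpep above Cd38, in 12 of 12 libraries each, although the ranges over libraries overlapped.

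Avp encodes the precursor of vasopressin, neurophysin II and copeptin. In the controls it stood at 353, 113, 94.4, 99.5, 143 and 420 CPM in replicates 1 to 6, and in the MMS pups at 371, 235, 577, 129, 219 and 294 CPM. Controls 1 and 6 lay among the upper MMS libraries and the other 4 controls were low, so the groups overlapped over most of their range. Only MMS 3 exceeded all controls. The mean was 204 ± 144 CPM in controls and 304 ± 156 CPM in MMS (SD, n = 6 per group), a log2 fold change of 0.57 ± 0.49 (SE). Its 95% interval ran from 0.697-fold to 3.18-fold (edgeR, adjusted p = 0.715), so both a fall and a rise of Avp lie inside it. On the log2 scale the change of Avp was 0.20 with 1 surrogate variable added, 0.30 with the level of Sim1 and Otp as a covariate and 0.85 without MMS 2 and MMS 4.

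Oxt encodes the precursor of oxytocin and neurophysin I. Its controls stood at 328, 220, 116, 274, 103 and 422 CPM and its MMS libraries at 326, 191, 402, 124, 291 and 427 CPM. Lowest and highest libraries were nearly the same in both groups, 103 and 422 CPM in controls and 124 and 427 CPM in MMS. The log2 fold change was 0.27 ± 0.40 (SE), with a 95% interval from 0.647-fold to 2.23-fold (edgeR, adjusted p = 0.845). Its sign turned under another fit, which added 1 surrogate variable (-0.12), and with the level of Sim1 and Otp as a covariate (-0.027), and it was 0.57 without MMS 2 and MMS 4.

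Among the members, the hormone genes stood out by a wide spread between pups for their level. Across the 12 libraries Avp varied 6.10-fold and Oxt 4.13-fold from the lowest to the highest. The SD of log2 CPM within groups was 0.849 for Avp, above 99.8% of the 500 genes nearest to it in level, whose median was 0.181. For Oxt it was 0.755, above 99.6% of its 500 neighbours, whose median was 0.186. Counting error was small beside this, 4.91% of the value in the Avp library with the fewest counts and 3.87% in that of Oxt. Such a spread was not particular to the hormone genes. Tcf7l2, a thalamic marker at a similar level, was at 222 ± 181 CPM in controls and 233 ± 141 CPM in MMS (SD). Cd38 also ranged widely, 5.75-fold with an SD of 0.691, but at its low level this was above 69.6% of its neighbours, whose median was 0.591. Avpr1a lay above 28.4% and Oxtr above 49.6% of the genes nearest to them in level, and Lnpep, above 2.6%, was among the steadier genes of its level.

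Avp and Oxt were high in several of the same pups, although the relation did not pass after adjustment. Control 6, control 1, MMS 1 and MMS 3 were high in both, and control 3, control 5 and MMS 4 were low in both. With the group means removed, and over the 10 libraries other than MMS 2 and MMS 4, Pearson's r was 0.648 (permutation p = 0.0444) and Spearman's rho 0.588 (permutation p = 0.0808). Adjusted over the 15 pairs of members, the permutation p was 0.443 for r and 0.606 for rho. Without the 2 of these 10 libraries farthest from the median of Avp, r fell to 0.248. Leaving out the extremes of Avp narrows its range and by itself lowers r, so how far the relation rests on those libraries cannot be told. Over all 12 libraries r was 0.738 (permutation p = 0.00749, adjusted permutation p = 0.0955) and rho 0.755, so r did not pass there either. Controls alone gave an r of 0.676 and MMS pups alone 0.834 (n = 6 each, MMS 2 and MMS 4 included).

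**Figure D2:**
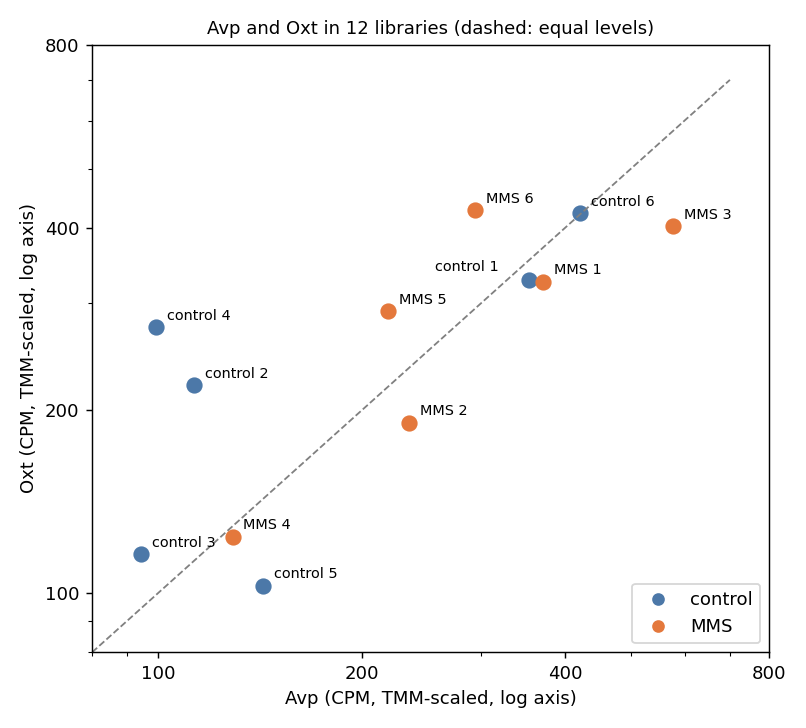
Avp (horizontal) and Oxt (vertical) in CPM on log axes, 1 point per library, controls in blue and MMS in orange, with a dashed line where the levels are equal. The libraries run from low in both to high in both genes, and controls 2 and 4 lie farthest above the line.

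The balance of the hormone genes within a library does not depend on scaling. The log2 ratio of Oxt to Avp was -0.11, 0.97, 0.30, 1.46, -0.47 and 0.01 in controls 1 to 6 and -0.19, -0.30, -0.52, -0.06, 0.41 and 0.54 in MMS 1 to 6. Oxt was above Avp in 4 controls and in 2 MMS libraries. The mean ratio was 0.36 ± 0.72 in controls and -0.02 ± 0.41 in MMS (SD, n = 6 per group). The difference of -0.38 did not pass the exact permutation test (two-sided p = 0.292, where 0.00216 is the smallest of 924 splits).

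Avpr1a encodes the vasopressin receptor of brain, liver and vessels, which couples to Gq and phospholipase C. It lies at chr10:122448499-122453452 (plus strand). The opposite-strand gene Gm48877, which has no values here, overlaps Avpr1a and covers its 3′ end, where the reads start. The strand setting of the counts is not given, and the part of Gm48877 in the counts of Avpr1a was not tested. Its values by replicate follow. For Avpr1a, controls stood at 11.2, 20.1, 13.3, 14.7, 16.2 and 13.7 CPM and MMS libraries at 10.8, 7.79, 9.99, 9.76, 12.2 and 14.8 CPM. MMS 1, 2, 3 and 4 lay below all controls, and MMS 5 and MMS 6 lay inside the control range. The 95% interval of the change ran from 0.558-fold to 0.963-fold, and an exact permutation test of the CPM values gave p = 0.0303 (two-sided). These levels rest on 29 to 105 counts per library, a counting error of 18.6% in the lowest and 9.76% in the highest. The lowest value belonged to MMS 2, and without MMS 2 and MMS 4 the log2 fold change was -0.31 (edgeR, adjusted p = 0.964, unadjusted p = 0.139). Over 22 alternative fits the direction was kept in 22 and the unadjusted p stayed under 0.05 in 17.

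Oxtr encodes the only oxytocin receptor, which also couples to Gq. It lies at chr6:112473683-112489943 (minus strand). Its CPM was 9.69, 10.1, 11.9, 12.1, 9.72 and 6.32 in controls and 12.4, 12.9, 6.96, 13.1, 9.41 and 6.76 in MMS. In MMS the libraries split into 3 above all controls (MMS 1, 2 and 4) and 3 lower ones, and the means were nearly equal, 9.97 ± 2.10 and 10.3 ± 2.95 CPM. The log2 fold change was 0.05 ± 0.22 (SE), with a 95% interval of 0.758-fold to 1.42-fold (edgeR, adjusted p = 0.944). It was -0.14 without MMS 2 and MMS 4, so its sign is not set by these data.

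Oxtr was low in several libraries in which the ligand genes were high. Over the 10 libraries r was -0.615 with Avp (adjusted permutation p = 0.443, rho = -0.661) and -0.51 with Oxt (adjusted permutation p = 0.491, rho = -0.491), so neither relation passed. Without the 2 libraries farthest in the ligand r was -0.429 with Avp and -0.64 with Oxt. Over all 12 libraries r was -0.686 with Avp and -0.662 with Oxt (adjusted permutation p = 0.0955 each). Control 6, MMS 3 and MMS 6, the libraries lowest in Oxtr, were the 3 highest in Oxt.

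Avpr1b encodes the receptor through which vasopressin drives release of adrenocorticotropic hormone from pituitary corticotrophs, and it is also known from the hippocampus. It lies at chr1:131599239-131612000 (plus strand). Control 6 held 1 count and MMS 5 held 1 count, and the other 10 libraries held 0. A count of 0 allows up to 0.463 to 0.966 CPM in these libraries (3 counts per library, counting error only), and the groups could not be told apart at this depth (exact permutation p = 1, two-sided). Avpr2, the kidney receptor of vasopressin, had 4 counts in all. Pituitary markers bear on Avpr1b: of 11 such genes 1 passed the count filter, Fshb and Pou1f1 were at 0 in all libraries, and the summed level was 29.7 to 80.2 CPM in controls and 40.6 to 71.8 CPM in MMS. Gh, the growth hormone gene, was highest in MMS 3 (26.6 CPM) and MMS 2 (11 CPM). Cga, the shared subunit of the pituitary glycoprotein hormones, was highest in control 6 (23.0 CPM). Control 6 was also the control library with an Avpr1b count, while MMS 2 and MMS 3 held none, and the part of pituitary tissue in these counts was not tested.

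Cd38 encodes the ectoenzyme that makes cyclic ADP-ribose, which opens calcium stores and is known to be needed for oxytocin release in the mouse. It lies at chr5:43868553-43912375 (plus strand), and the 2 annotated genes that overlap it, Gm16015 and Gm16014, had 0 counts. It was the scarcest member tested, with 5 to 31 counts per library and a counting error of up to 44.7%. Its CPM was 2.58, 1.36, 1.17, 2.75, 4.78 and 1.69 in controls and 2.34, 5.64, 3.63, 3.90, 0.981 and 1.93 in MMS. MMS 2 was the highest and MMS 5 the lowest of all 12. The log2 fold change was 0.32 ± 0.42 (SE, 0.685-fold to 2.28-fold; edgeR, adjusted p = 0.810), and it was -0.17 without MMS 2 and MMS 4.

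Lnpep encodes the placental leucine aminopeptidase, also called oxytocinase, which cleaves oxytocin and vasopressin and is also the insulin-regulated aminopeptidase of glucose transporter vesicles. It lies at chr17:17521410-17625050 (minus strand), and Gm49784, which overlaps it on the same strand, has no values here. Its CPM was 9.26, 6.52, 5.87, 5.27, 7.56 and 4.63 in controls and 5.85, 6.98, 6.36, 5.68, 6.08 and 5.15 in MMS. All MMS libraries lay inside the control range, and their SD was 0.624 CPM against 1.68 CPM in controls, where control 1 was the highest. These levels rest on 16 to 49 counts per library, a counting error of 25% in the lowest and 14.3% in the highest. The SD in MMS was 10.4% of the mean, below this counting error, so the narrower spread cannot be read as a trait of the gene. The log2 fold change was -0.12 ± 0.23 (SE, 0.662-fold to 1.28-fold; edgeR, adjusted p = 0.881), and it was 0.0060 without control 1 and 0.12 with the level of Sim1 and Otp as a covariate.

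Around the members, 10 gene lists of the same system were read, from transcription factors of the magnocellular neurons to granule proteins, receptor signalling and related peptidases. They held 86 genes, of which 72 were tested. Of these 39 were higher and 33 lower in MMS, with a median log2 fold change of 0.03 against 0.000909 over all tested genes. At an unadjusted p under 0.05 there were 5 higher and 1 lower (8.33%, against 9.08% of all tested genes), and 0 passed after adjustment in edgeR, where the smallest adjusted p was 0.385. Without MMS 2 and MMS 4, a choice made after seeing the data, 48 of the 72 were higher and 24 lower. The changes of all 13407 genes in that fit were centred near 0 (median 0.000663). An unadjusted edgeR p under 0.05 was reached by 3 of the 72, against 674 of the 13407 (5.03%), so the lists held no excess of such genes. All 3 were higher, and of them Trhde and Rasd1 were among the 6 found with all libraries and Grk5 was not.

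The transcription factors that form or mark the neurosecretory neurons gave no call, with 5 of 7 tested genes higher and 2 lower, a median of 0.04 and 0 at an unadjusted p under 0.05. Otp was at a mean of 60.4 CPM in controls and 73.9 CPM in MMS (log2 fold change 0.29 ± 0.19; edgeR, adjusted p = 0.635). Sim1 was at 11.6 ± 1.97 and 13.9 ± 2.12 CPM (0.26 ± 0.18; adjusted p = 0.637). Of the 8 peptides and enzymes made beside the hormones, 5 were higher and 3 lower, 0 at an unadjusted p under 0.05. Cartpt, the appetite-related CART peptide gene, had the smallest p of them (-0.30 ± 0.15; edgeR, adjusted p = 0.556). Of the 5 tested markers of the suprachiasmatic nucleus 1 was higher and 4 were lower, with a median of -0.43. Lhx1, a transcription factor of that nucleus, was at 58.3 ± 16.8 CPM in controls and 41.2 ± 10.1 CPM in MMS (-0.50 ± 0.20; edgeR, unadjusted p = 0.0195, adjusted p = 0.543). The unadjusted edgeR p of Lhx1 was 0.132 without MMS 2 and MMS 4 (-0.32), 0.0574 without control 5, 0.0609 with 1 surrogate variable and 0.136 with the Sim1 and Otp covariate. Vip, its main peptide beside vasopressin, ran from 0 to 8.79 CPM in controls and from 0.177 to 6.86 CPM in MMS, a wide range in both groups.

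Precursor processing and granules gave the following values. Of the 6 processing genes 3 were higher and 3 lower, 0 of them at an unadjusted p under 0.05. Cpe, carboxypeptidase E, was the most abundant of those named at 2800 ± 321 CPM in controls and 2450 ± 496 in MMS (-0.19 ± 0.12; edgeR, adjusted p = 0.620). Of the 12 tested genes of dense core granules and release 7 were higher and 5 lower. The granins Chgb and Chga, packaging proteins of the granule core, were the 2 with an unadjusted p under 0.05. Chgb was at 214 ± 24.3 and 272 ± 50.4 CPM (0.35 ± 0.12; edgeR, unadjusted p = 0.00818, adjusted p = 0.543), with 3 of 6 MMS libraries above all controls. Chga was at 161 ± 13.1 and 198 ± 38.7 CPM (0.30 ± 0.12; edgeR, unadjusted p = 0.0209, adjusted p = 0.543), with 4 above and 1 below all controls. Without MMS 2 and MMS 4 Chgb was at 0.21 (edgeR, unadjusted p = 0.0538) and Chga at 0.21 (unadjusted p = 0.0788), and without MMS 3 Chga lost its unadjusted call (unadjusted p = 0.0618).

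Downstream of the receptors, 8 of 17 tested genes of Gq and calcium signalling were higher and 9 lower, with a median of -0.02. Plcb1, a phospholipase C that Gq activates, was at 56.5 ± 10.5 CPM in controls and 79.3 ± 22.2 CPM in MMS (0.50 ± 0.17; edgeR, unadjusted p = 0.00705, adjusted p = 0.543). Its highest libraries were MMS 2 (114 CPM) and MMS 4 (98.4 CPM), and without them the log2 fold change of Plcb1 was 0.24 (edgeR, unadjusted p = 0.0829). Of the 4 tested genes of cyclic ADP-ribose and calcium stores, the pathway of Cd38, 2 were higher and 2 lower and 0 had an unadjusted p under 0.05. Ryr2, a calcium store channel, changed its sign without MMS 2 and MMS 4 (0.24 with all libraries, -0.36 without).

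Among 5 tested peptidases related to Lnpep 3 were higher and 2 lower, and Trhde had the smallest p. It encodes the enzyme that cleaves thyrotropin-releasing hormone and belongs to the same family of membrane aminopeptidases as Lnpep. Its CPM was 8.83, 5.43, 4.86, 7.11, 8.02 and 8.01 in controls and 9.13, 18.0, 14.2, 14.4, 10.2 and 12.6 in MMS. All 6 MMS libraries lay above all controls, which 0.389% of tested genes did in either direction. The log2 fold change was 0.88 ± 0.22 (SE; edgeR, unadjusted p = 0.000475, adjusted p = 0.385), so it did not pass after adjustment. Without MMS 2, the highest library, it was 0.78, and without MMS 2 and MMS 4 it was 0.70 (edgeR, unadjusted p = 0.0064). Trh, whose product Trhde breaks down, was at 35.7 ± 14.6 and 42.0 ± 13.1 CPM (0.23 ± 0.24; edgeR, adjusted p = 0.767). Of the 8 tested genes of osmosensing and ion transport 5 were higher and 3 lower. Rasd1, a small G protein that rises in these neurons after salt loading, was at 1.90 to 8.25 CPM in controls and 4.03 to 10.9 CPM in MMS (0.71 ± 0.34; edgeR, unadjusted p = 0.0486, adjusted p = 0.546). The unadjusted edgeR p of Rasd1 rose above 0.05 with 1 surrogate variable (0.0925) and when control 1, 2, 3 or 6 or MMS 1, 3 or 5 was left out (highest 0.147).

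Genes that varied like the hormone genes were then ranked by Pearson's r of log2 CPM, with group means removed, over the same 10 libraries and 11745 genes. These values describe 10 libraries that share their scaling, and with so many genes the leading values are high by selection. For Avp the leading genes were Lhpp (0.953), Dnajb12 (0.922), Spry1 (0.892), Trh (0.886) and Tbr1 (0.883). For Oxt they were Vgf (0.924), Hps6 (0.918), Gm12222 (0.916), Sugt1 (0.913) and Ctdsp1 (0.911). Vgf encodes a granule protein that is cut into secreted peptides. With all 12 libraries 3 of these 10 stayed among the leading 5, namely Trh for Avp (0.875) and Gm12222 (0.929) and Ctdsp1 (0.894) for Oxt. The other 7 fell back, most of all Lhpp, the leading gene for Avp, to 0.140 and rank 4260, and Spry1 to 0.495 and rank 647, while Vgf was at 0.750 with Oxt and rank 79.

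**Figure D3:**
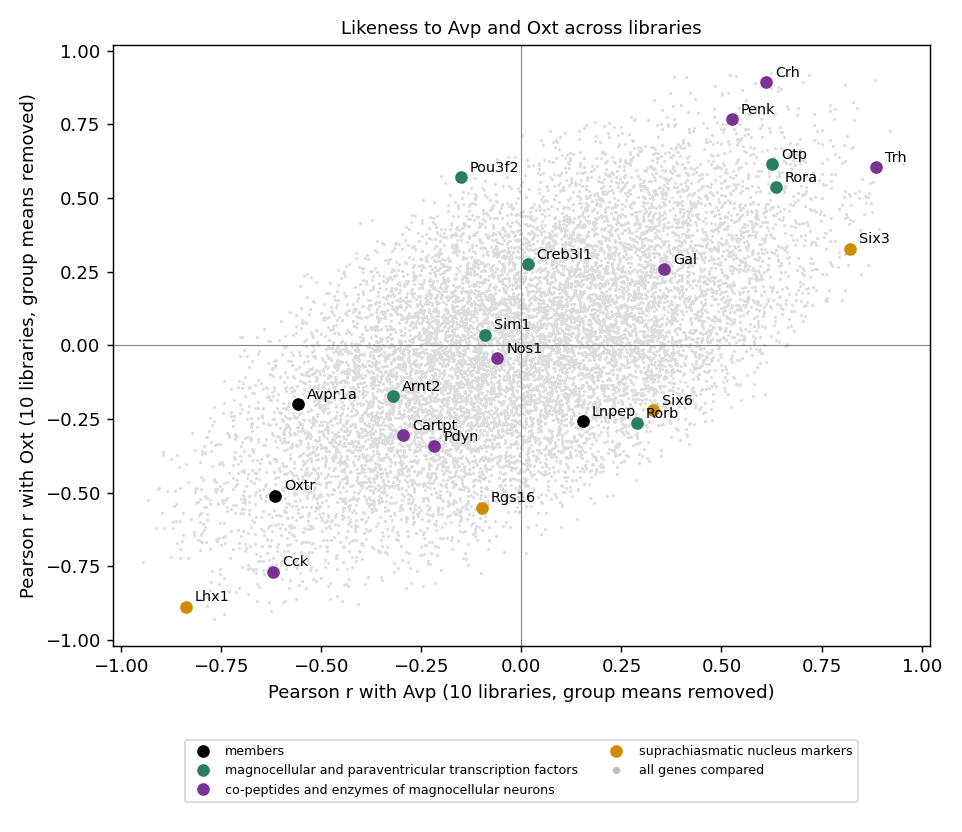
Pearson's r with Avp (horizontal) and with Oxt (vertical) over 10 libraries, group means removed, for all genes compared (grey) and for genes of 4 lists (coloured and named). Otp, Crh, Penk and Trh lie at the upper right, high with both hormone genes, and Oxtr, Cck and Lhx1 lie at the lower left.

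Among the listed genes, markers of the same nuclei did not all go with the hormone genes. Otp had an r of 0.627 with Avp and 0.615 with Oxt, while Sim1 had -0.0905 and 0.0357. Crh, the corticotropin-releasing hormone gene of the paraventricular nucleus, had 0.611 with Avp and 0.892 with Oxt, where it ranked 8. The opioid precursor Penk had 0.526 and 0.767, and Pdyn, an opioid precursor stored with vasopressin in adult neurons, had -0.217 and -0.342. Lhx1 had -0.838 and -0.887, near the bottom of all genes for both, whereas Six3, another gene listed for the suprachiasmatic nucleus, had 0.821 with Avp. Over all 12 libraries Pdyn turned to 0.264 and 0.376, Lhx1 was at -0.447 and -0.324, Crh at 0.464 and 0.601, Penk at 0.354 and 0.420, and Otp at 0.664 and 0.679. The table gives no position of the cut, so the share of a nucleus in a sample cannot be told apart from the level in its cells.

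Markers of tissue next to the hypothalamus were read beside these values. The 7 telencephalic markers, among them Tbr1, summed to 36.2 to 73.0 CPM in controls and 41.2 to 80.6 CPM in MMS, with none at 0 in all libraries. Tbr1 was at 19.8 and 21.1 CPM in controls 1 and 6, the controls high in Avp, and at 2.18 to 6.19 CPM in the other controls, but its highest level, 22.3 CPM, was in MMS 4, the MMS library lowest in Avp. The 7 thalamic markers summed to 1250 to 2010 CPM in controls and 1270 to 2060 CPM in MMS. The largest parts of this sum were Calb2 (799 CPM in controls, 751 CPM in MMS) and Slc17a6 (500 and 513 CPM). Tcf7l2 was at 222 ± 181 CPM in controls and 233 ± 141 CPM in MMS. Lhx9 was at 13 ± 12.8 and 16.3 ± 7.49 CPM, and Gbx2 at 5.19 ± 7.02 and 6.37 ± 5.36 CPM (SD, n = 6 per group). The sum does not show this wide spread between libraries. Glial and vascular sums overlapped between the groups, at 1990 to 2380 and 2230 to 2470 CPM for 8 astrocyte markers, 158 to 200 and 145 to 182 CPM for 8 microglial markers, and 148 to 182 and 110 to 181 CPM for 6 endothelial markers. Single markers in these lists moved in opposite directions at an unadjusted edgeR p under 0.05 and 0 passed after adjustment. Higher were the astrocyte gene Aldoc (0.33, unadjusted p = 0.00164, with no overlap between the groups) and the microglial gene Itgam (0.73, unadjusted p = 0.0343). Lower were the astrocyte gene Sox9 (-0.54, unadjusted p = 0.0421), the microglial gene Cx3cr1 (-0.37, unadjusted p = 0.0119) and the endothelial gene Cldn5 (-0.60, unadjusted p = 0.000446). The 7 tested ependymal cilia genes were all lower in MMS by the fit (median -0.78), where 50.1% of all tested genes were higher. Hydin was the 1 of them with an unadjusted edgeR p under 0.05 (-1.23, unadjusted p = 0.0124, adjusted p = 0.543). The 9 listed cilia genes summed to 70.2 to 168 CPM in controls and 17.7 to 156 CPM in MMS. The part of these tissues in the levels of Avp, Oxt and Avpr1a was not tested.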

How the data were processed

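Hypothalamic RNA of 6 control and 6 MMS pups was made into 3′ mRNA libraries, sequenced on an Ion Proton instrument and aligned to mm10, the build named in the submitters' processing notes. The authors deposited raw read counts for each gene and library, not normalized and not pooled. How reads were counted, with which tool, strand setting and annotation, is not given in the sources used here. Members and gene lists were chosen with earlier results of these data known.

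Counts were tested in edgeR 4.0.16 (R 4.3.3) by the quasi-likelihood test with TMM scaling and the default filter (minimum count 10, minimum total 15), two-sided, with Benjamini-Hochberg adjustment over the 13104 genes left. CPM are counts relative to the scaled library totals. Correlations used log2 CPM with a prior count of 2 and 100000 permutations, ranked genes needed a mean of 20 counts per library, and the ratio of Oxt to Avp used a pseudocount of 0.5. Exact permutation tests covered all 924 ways to assign 6 of the 12 libraries to MMS. Replicates of a group differed by more than sampling noise (chi-square per degree of freedom 4.04 to 31.5 over 30 pairs). P-values measure the spread between these libraries only, since litters are not labelled. Beside the members, up to 3 genes per pathway list with the smallest p and the 5 genes most like Avp or Oxt were named. Avpr2, Crh, Pdyn, Cck, Six3, Grk5, Gh, Cga and the single glial, endothelial, telencephalic, thalamic and ependymal markers were chosen after their values were seen.

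DESeq2 1.42.0, limma 3.58.1, sva 3.50.0, other scalings and filters, a replicate block and leaving out libraries were the alternatives. Positions and sequences are those of GENCODE M21 on GRCm38, the same assembly as mm10.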

Additional observations from a re-analysis of the deposited data

Results flagged for a closer look

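Avpr1b was set apart because 1 library of each group lay far from its 5 companions, by a test of the gap to the nearest library against the range. In controls the library was control 6, at 0.211 CPM, and in MMS it was MMS 5, at 0.196 CPM. Each value is a single count where all other libraries of the group held 0, so it marks the lowest level that these libraries can register. Of 18 sets of values examined 2 were picked out, both of Avpr1b. The rate expected by chance, about 1 in 20 or 0.9 of these 18, assumes continuous values. Where all other libraries of a group are at 0, a single count is always picked out, so that rate does not apply to these 2 sets.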

How the results depend on the processing

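The members gave 0 adjusted calls under all 22 alternatives tried. Over all genes the count of calls, 0 in the reported edgeR fit, was 6 in DESeq2, 1 with no count filter, 5 without MMS 2 and MMS 4, 1 with the replicate block, and between 0 and 1 when a single library was left out (1 without MMS 2 and 1 without MMS 4). The cause was not tested. Same-numbered libraries did not deviate together (r between -0.0476 and 0.116 over 6 pairs, and 3 of 12 libraries correlated best with their own number), so the numbers were not read as a pairing. With the replicate block Avpr1a was at -0.44 (edgeR, adjusted p = 0.533) and the other members kept their direction. Leaving out a single library put the log2 fold change of Avpr1a between -0.55 and -0.35 and its adjusted edgeR p between 0.328 and 0.863, and its unadjusted p rose above 0.05 without control 2, control 5, MMS 2 or MMS 4 (highest 0.0833). Avp lay between 0.29 (without MMS 3) and 0.93 (without control 6) and Oxt between 0.11 (without control 5) and 0.50 (without control 6), and the ratio of Oxt to Avp between -0.54 and -0.16.

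The sign turned without MMS 2 and MMS 4 for Oxtr (-0.14), Cd38 (-0.17), Vip (0.013), Pam (0.033), Ryr2 (-0.36), Ece1 (0.0037) and Npepps (0.0022). It turned with 1 surrogate variable for Oxt (-0.12) and Ryr3 (0.076), and with the Sim1 and Otp level as a covariate for Oxt (-0.027), Lnpep (0.12), Trh (-0.035), Trpm2 (0.065) and Ryr3 (0.19). Otp, at -0.054 there, is part of that covariate, so its value near 0 follows from the construction. Leaving out a single library gave -0.035 to 0.14 for Oxtr, -0.19 to 0.0060 for Lnpep, -0.086 to 0.46 for Ryr2 and -0.20 to 0.11 for Ryr3. The cause was not tested. Avp was at 0.20 with 1 surrogate variable and 0.30 with the covariate. Of the 10 genes most like Avp and Oxt 3 were shared with the ranking over all 12 libraries. Depth limits Cd38, with as few as 5 counts, and Avpr1b, with 1 at most.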
